A study of Mus musculus with 12 samples.

Results

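The genes of the eukaryotic translation initiation factors were examined in mpkCCD cells, an immortal line from the cortical collecting duct of the mouse, with and without the transcription factor NFAT5 at isotonic and hypertonic osmolality. They were taken by name, as every gene whose symbol starts with Eif1 to Eif6, leaving out the Eif2ak kinases and the names that contain -ps. Of 64 symbols of that form, 4 kinases and 8 -ps names were left out, and 52 of the 52015 genes of the table remained. The choice used no expression value, but it, the roles and the gene lists were set with earlier results of these data known.

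Scr_300 and Scr_600 were mpkCCD cells transduced with a scramble (Scr) gRNA that targets no gene, and Nfat5-KO_300 and Nfat5-KO_600 were cells of 2 clones, N1 and N3, whose Nfat5 gene had been disrupted by CRISPR/Cas9. The isotonic groups were kept at 300 mosmol/kg and the hypertonic groups at 600 mosmol/kg, made by adding 100 mM NaCl and 100 mM urea, for 5 days, and all groups grew in the same serum-containing medium. RNA-seq covered 12 cultures, 4 in each Nfat5-KO group and 2 in each Scr group. The deposited table gives 1 value per gene and group in FPKM (fragments scaled to gene length and sequencing depth), without a value per culture. No comparison below therefore has a replicate check, an SD or a p-value, and the clones cannot be told apart from each other or from the loss of NFAT5.

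Initiation begins when eIF2 carries the initiator methionyl-tRNA to the small ribosomal subunit, together with eIF1, eIF1A, eIF5 and the large scaffold eIF3. The eIF4F complex (the cap-binding eIF4E, the scaffold eIF4G and the helicase eIF4A) brings the mRNA, and eIF5B joins the large subunit once the start codon is found. Control acts mainly on 2 steps: stress kinases phosphorylate eIF2alpha and so block its exchange factor eIF2B, and the 4E-binding proteins, when not phosphorylated by mTORC1, take eIF4E away from eIF4G.

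Most initiation factor transcripts were at lower levels in hypertonic than in isotonic medium, and by more in Nfat5-KO than in Scr cells. The largest hypertonic differences in both genotypes included the eIF2 subunits Eif2s1 and Eif2s3x and the eIF5A isoform Eif5a2, while Eif6, Eif4ebp1 and Eif2b3 differed far more in Nfat5-KO cells. Under isotonic conditions only Eif4g1 was 1.5-fold or more away from Scr cells, and it was higher in Nfat5-KO cells. Under hypertonic conditions Eif4ebp1 and Eif3m were 1.5-fold or more lower in Nfat5-KO cells, and Eif3m was no longer past this fold with equal FPKM sums (-0.51 in place of -0.63).

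FPKM summed to between 212200 and 253800 over the genes used in the 4 groups. Steps between the values of low genes gave about 30800000 to 37100000 reads per library if each group value is the mean of its libraries, with 79.2% to 91.0% of low values within 0.15 of a whole read. Nfat5 itself (chr8:107293470-107379517, GRCm38) was listed at 5.61 FPKM in Scr_300, 7.93 in Scr_600, 3.47 in Nfat5-KO_300 and 6.88 in Nfat5-KO_600, so the transcript was still present in the knockout groups. Its known target Akr1b3, the aldose reductase gene, was at 23.8 FPKM in Scr_300, 175 in Scr_600, 14.5 in Nfat5-KO_300 and 39.2 in Nfat5-KO_600. It was thus higher in hypertonic medium in both genotypes. On a list of 11 NFAT5 target genes, which includes Nfat5, 9 could be compared at 600 mosmol/kg. All 9 had less FPKM without NFAT5, 7 of them by 1.5-fold or more. The smallest difference was that of Slc6a6 (log2 ratio of -0.033). Its log2 ratio for 600 against 300 mosmol/kg was 1.37 in Nfat5-KO and 0.88 in Scr cells. All 8 markers of collecting duct epithelium were at 0.5 FPKM or more, but only 5 of 13 principal cell markers were, and the defining ones were near 0: Aqp2 reached 0.245 FPKM, Avpr2 0.0193 and Aqp4 0.0452. The summed level of the principal cell list ran from 34.1 FPKM in Scr_600 to 100.3 in Nfat5-KO_600, with Hsd11b2, Gata3, Scnn1a and Tfcp2l1 each 2-fold or more higher in Nfat5-KO_600 than in Scr_600 (log2 ratios of 3.06, 2.77, 2.33 and 1.08), and that of the 8 epithelial markers from 1102 in Nfat5-KO_600 to 1701 in Scr_300. Aqp1, the water channel listed as a proximal tubule marker, was at 23.6 FPKM in Scr_300, 318 in Scr_600, 0.653 in Nfat5-KO_300 and 3.51 in Nfat5-KO_600, and Slc34a1 and Slc5a2 of that list reached 0.0113 and 0.0156 FPKM. Lrp2, the other of the 2 among 6 proximal tubule markers at 0.5 FPKM or more, went the other way, at 0.0116 FPKM in Scr_600 and 1.07 in Nfat5-KO_600. None of the 6 endothelial, 8 fibroblast and smooth muscle or 5 thick ascending limb and distal tubule markers reached 0.5 FPKM, and 2 of 7 immune and 2 of 7 intercalated cell markers did. The part of these markers in the differences below was not tested, and in bulk RNA a lower level in each cell cannot be told apart from fewer cells that express a gene.

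Of the 52 genes, 47 reached 0.5 FPKM in at least 1 group. Eif2s3y, the Y-linked copy of the eIF2gamma gene, Eif4e3, a cap-binding relative of eIF4E, and Eif2c5, a long non-coding RNA with no known place in initiation, were listed at 0 in all groups. Eif4e1b, an eIF4E relative known from oocytes, reached 0.0065 FPKM and Eif4ebp3, a 4E-binding protein gene, 0.279 FPKM. The 47 expressed genes rested on 145 reads or more in a group (Eif3j2) and all others on 928 or more, so that counting error alone gave a log2 ratio an SE of at most 0.063, or 0.16 for Eif3j2. Summed over the 47, the level was 3233 FPKM in Scr_300, 2757 in Scr_600, 3380 in Nfat5-KO_300 and 2395 in Nfat5-KO_600. The 2 hypertonic sums lay below both isotonic sums.

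**Figure D1:**
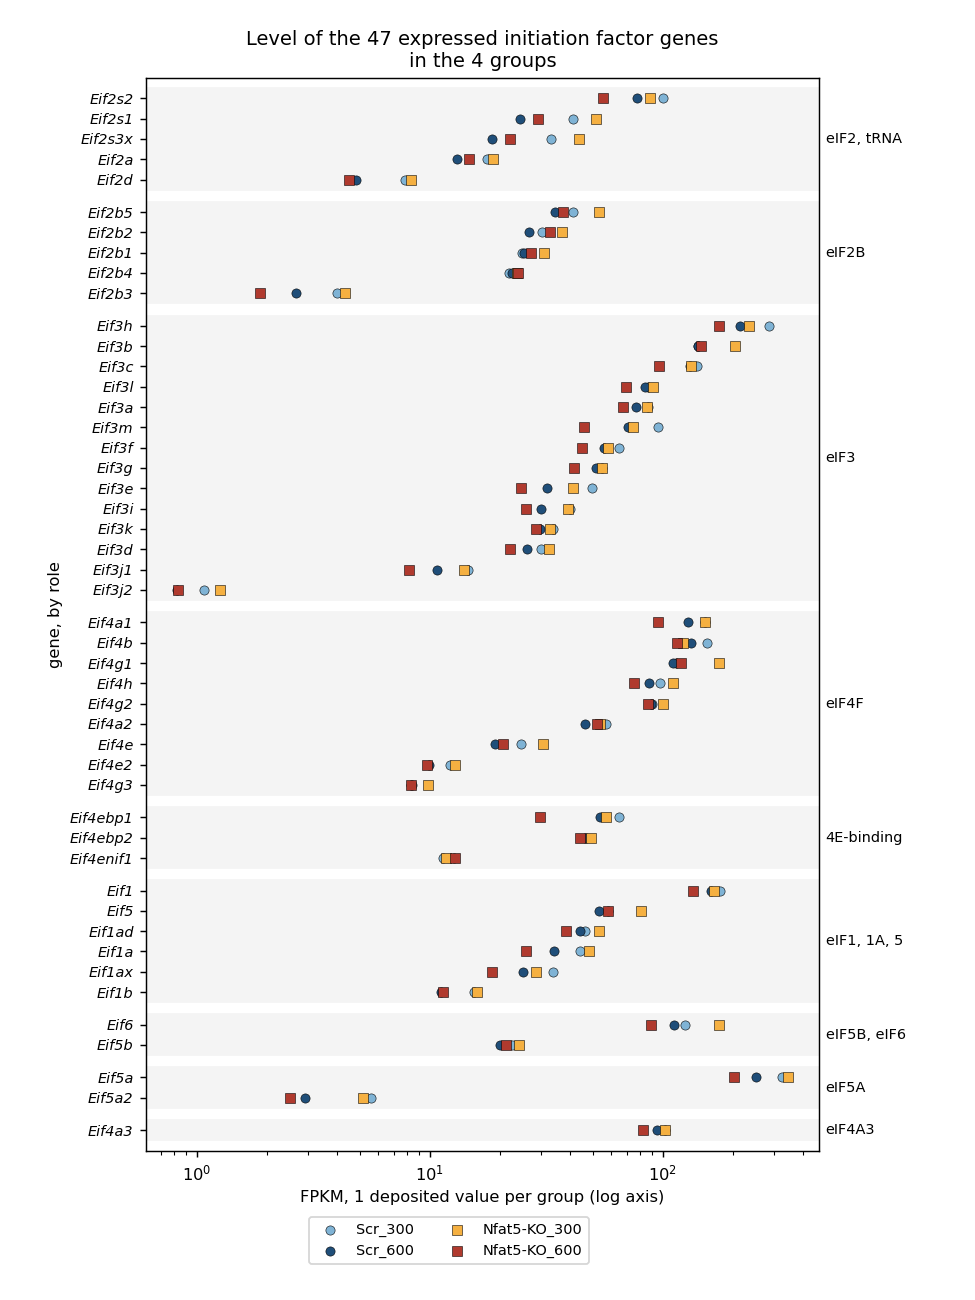
FPKM (log axis, 1 deposited value per group and no error) of the 47 expressed initiation factor genes in Scr_300, Scr_600, Nfat5-KO_300 and Nfat5-KO_600, ordered by role and level. Nfat5-KO_600 was the lowest of the 4 groups for 30 genes and Scr_600 for 13.

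Differences between groups are given as log2 ratios of FPKM + 0.1, for genes that reached 0.5 FPKM in either group of a comparison, and 1.5-fold or more is called past the fold. The question of the first comparisons is how 5 days at 600 mosmol/kg altered these transcripts in each genotype. In Scr cells 43 of the 47 genes were lower in Scr_600 than in Scr_300, with a median log2 ratio of -0.23 beside -0.041 over all 12929 genes compared. The share of all genes that were lower was 54.6%. Past the fold, 5 genes were lower (Eif5a2, Eif2s3x, Eif2s1, Eif2d and Eif3e) and 0 higher, where 9.01% of all genes were lower and 10.4% higher. In Nfat5-KO cells 45 of 47 were lower in the hypertonic group, with a median of -0.48 beside -0.040 over all 12982 genes, of which 52.9% were lower. There 16 genes were past the fold and lower and 0 higher, where 13.8% of all genes were lower and 14.1% higher. The 5 of 47 in Scr cells were close to the background share, and the 16 of 47 in Nfat5-KO cells were above it.

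These counts depended on the scale. With the 4 groups set to equal FPKM sums, all genes moved up by 0.13 in the Scr and 0.24 in the Nfat5-KO comparison. Then 33 of 47 initiation factor genes were lower in Scr_600 and 37 of 47 in Nfat5-KO_600, with medians of -0.099 and -0.24 and with 3 and 7 genes past the fold and lower. Of all genes, 40.2% and 34.0% were then lower, 5.99% and 6.73% past the fold and lower, and 13.98% and 24.6% past the fold and higher. Relative to the median of all genes, the median of the 47 was -0.19 in Scr and -0.44 in Nfat5-KO cells. Rescaling shifts all genes of a comparison nearly alike, so this difference is nearly fixed and is no check on the scale. Levels mattered too: among genes that averaged 5 FPKM or more the median of all genes was -0.057 in Scr and -0.11 in Nfat5-KO cells, beside -0.21 and -0.47 for the 44 initiation factor genes that passed this minimum.

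**Figure D2:**
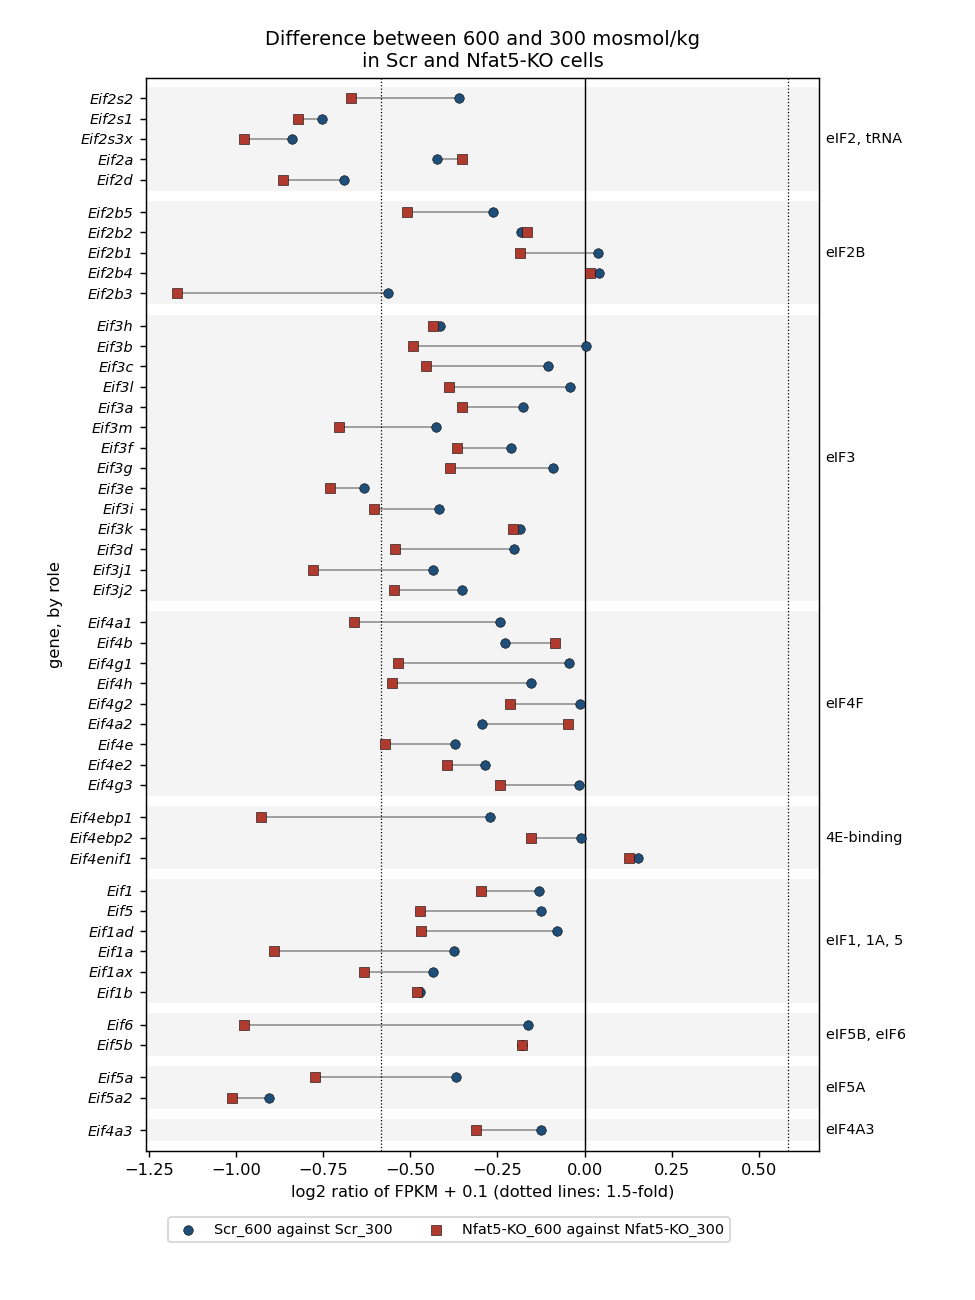
Log2 ratio of FPKM + 0.1 of 600 against 300 mosmol/kg for each expressed initiation factor gene in Scr cells (circles) and Nfat5-KO cells (squares), by role, with dotted lines at 1.5-fold. The squares lie to the left of the circles for 43 of 47 genes.

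The genes that deliver the initiator tRNA gave the largest hypertonic differences of any role with more than 2 genes. All 5 expressed genes of this role were lower in both genotypes, also with equal FPKM sums, with medians of -0.69 in Scr and -0.82 in Nfat5-KO cells. Eif2s1 (chr12:78861819-78887010) encodes eIF2alpha, the subunit that stress kinases phosphorylate. It was listed at 40.97 FPKM in Scr_300, 24.3 in Scr_600, 51.7 in Nfat5-KO_300 and 29.2 in Nfat5-KO_600, log2 ratios for 600 against 300 mosmol/kg of -0.75 in Scr and -0.82 in Nfat5-KO cells. Eif2s3x (chrX:94188707-94212862), the eIF2gamma gene, was at 33.3 FPKM in Scr_300, 18.6 in Scr_600, 43.6 in Nfat5-KO_300 and 22.1 in Nfat5-KO_600, log2 ratios of -0.84 in Scr and -0.98 in Nfat5-KO cells. For both genes the 2 hypertonic values lay below both isotonic values, and each Nfat5-KO value lay above the Scr value at the same osmolality. The third subunit, eIF2beta, is encoded by Eif2s2 (chr2:154871410-154892935), which was at 99.7 FPKM in Scr_300, 77.7 in Scr_600, 87.9 in Nfat5-KO_300 and 55.2 in Nfat5-KO_600. Unlike the other subunits it was below the Scr level in Nfat5-KO cells, with log2 ratios of -0.18 at 300 and -0.49 at 600 mosmol/kg. Its value is uncertain, because a processed pseudogene, Gm9892, is 99.5% identical to it and was listed at 46.7 to 93.3 FPKM. Eif2d, a factor that can deliver tRNA without eIF2, was at 7.81 FPKM in Scr_300, 4.81 in Scr_600, 8.31 in Nfat5-KO_300 and 4.51 in Nfat5-KO_600, log2 ratios of -0.69 in Scr and -0.87 in Nfat5-KO cells. Eif2a, another eIF2-independent tRNA carrier, was the exception of this role in that it differed less in Nfat5-KO cells, with a log2 ratio of -0.35 beside -0.42 in Scr cells.

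The 5 genes of eIF2B, the exchange factor that reloads eIF2 with GTP, had medians of -0.18 for 600 against 300 mosmol/kg in both genotypes, and 1 of them was past the fold. With equal FPKM sums the medians were -0.052 in Scr and 0.057 in Nfat5-KO cells, with 3 and 2 of 5 genes lower, so the direction in Nfat5-KO cells turned. Eif2b3 (chr4:117019402-117087306), the gamma subunit gene, was at 3.99 FPKM in Scr_300, 2.67 in Scr_600, 4.32 in Nfat5-KO_300 and 1.86 in Nfat5-KO_600. Its log2 ratio of -1.17 in Nfat5-KO cells was the largest of the 47 genes, and in Scr cells it was -0.56. With a pseudocount of 1 FPKM these became -0.89 and -0.45, respectively. Eif2b5, which encodes the catalytic subunit, was the most abundant of the 5 at 41.3 FPKM in Scr_300, 34.4 in Scr_600, 53.2 in Nfat5-KO_300 and 37.3 in Nfat5-KO_600. Eif2b4 was 1 of only 2 initiation factor genes whose level in Nfat5-KO cells was higher in hypertonic medium, by a log2 ratio of 0.017, at 21.9 FPKM in Scr_300, 22.5 in Scr_600, 23.5 in Nfat5-KO_300 and 23.8 in Nfat5-KO_600. Eif2b1, the alpha subunit gene, was at 24.8 FPKM in Scr_300, 25.4 in Scr_600, 30.8 in Nfat5-KO_300 and 27.1 in Nfat5-KO_600, and so was higher in hypertonic medium in Scr cells alone. Eif2b2, the beta subunit gene, had the highest hypertonic ratio of Nfat5-KO to Scr cells of the 47 genes (0.29), at 30.3 FPKM in Scr_300, 26.7 in Scr_600, 36.8 in Nfat5-KO_300 and 32.8 in Nfat5-KO_600.

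The 14 genes of eIF3, the complex that organises factors on the small subunit, ranged over 188-fold to 267-fold in FPKM within a group, between Eif3j2 and Eif3h. In Nfat5-KO cells all 14 were lower in hypertonic medium, with a median of -0.47, and in Scr cells 13 of 14 were, with a median of -0.21. With equal FPKM sums 13 and 10 of 14 were lower. The 4 eIF3 genes past the fold in Nfat5-KO cells were Eif3j1 (-0.78), Eif3e (-0.73), Eif3m (-0.70) and Eif3i (-0.60), of which Eif3e also passed in Scr cells (-0.63). Eif3e was at 49.6 FPKM in Scr_300, 32.0 in Scr_600, 41.1 in Nfat5-KO_300 and 24.7 in Nfat5-KO_600, and Eif3i, a small subunit of the core, at 39.9, 29.9, 39.2 and 25.7 FPKM in the same order. Eif3h, the most abundant, was at 286 FPKM in Scr_300, 215 in Scr_600, 235.1 in Nfat5-KO_300 and 174 in Nfat5-KO_600. The smallest log2 ratio in Nfat5-KO cells was that of Eif3k, at -0.20. Eif3j1 and Eif3j2, which encode the loosely bound j subunit, have coding sequences 99.7% identical, so their separate levels are uncertain. Eif3j1 was at 14.5 FPKM in Scr_300, 10.7 in Scr_600, 14.0 in Nfat5-KO_300 and 8.14 in Nfat5-KO_600, which is 9.85 to 13.6 times the Eif3j2 value (0.820 to 1.253 FPKM) in each group.

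The 9 expressed genes of eIF4F and its helpers were all lower at 600 mosmol/kg in both genotypes, with medians of -0.23 in Scr and -0.39 in Nfat5-KO cells, but 6 of 9 in each with equal FPKM sums. Eif4a1 (chr11:69666936-69672423), the helicase gene, was at 152 FPKM in Scr_300, 128 in Scr_600, 151 in Nfat5-KO_300 and 95.6 in Nfat5-KO_600. It was the only gene of this role past the fold between 600 and 300 mosmol/kg, at -0.66 in Nfat5-KO cells beside -0.24 in Scr cells. The pseudogene Eif4a-ps4 is 99.9% identical to it and was listed at 71.4 to 116 FPKM, so the split of reads between them is uncertain. The paralog Eif4a2 went the other way between genotypes: it was at 57.1 FPKM in Scr_300, 46.6 in Scr_600, 53.9 in Nfat5-KO_300 and 52.2 in Nfat5-KO_600, log2 ratios of -0.29 in Scr and -0.048 in Nfat5-KO cells. The ratio of Eif4a1 to Eif4a2 was 1.83 in Nfat5-KO_600 and 2.65 to 2.81 in the other groups. Eif4e, the cap-binding protein, was at 24.5 FPKM in Scr_300, 18.9 in Scr_600, 30.7 in Nfat5-KO_300 and 20.6 in Nfat5-KO_600, and its relative Eif4e2 at 12.1, 9.94, 12.9 and 9.76 FPKM in the same order.

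Among the genes of proteins that bind eIF4E, Eif4ebp1 (chr8:27260329-27276674) stood apart. It was listed at 64.9 FPKM in Scr_300, 53.8 in Scr_600, 56.8 in Nfat5-KO_300 and 29.8 in Nfat5-KO_600. The Nfat5-KO_600 value lay well below the other 3, and the log2 ratio for 600 against 300 mosmol/kg was -0.93 in Nfat5-KO and -0.27 in Scr cells. Its paralog Eif4ebp2 differed by only -0.010 in Scr and -0.15 in Nfat5-KO cells, at 46.6 FPKM in Scr_300, 46.3 in Scr_600, 49.1 in Nfat5-KO_300 and 44.1 in Nfat5-KO_600. The ratio of Eif4ebp1 to Eif4ebp2 was 0.675 in Nfat5-KO_600 and 1.16 to 1.39 in the other groups. Eif4enif1, which encodes the eIF4E transporter, was the other gene with a higher level in Nfat5-KO_600 than in Nfat5-KO_300, with a log2 ratio of 0.13, and it had the highest ratio in Scr cells, at 0.15. It was at 11.4 FPKM in Scr_300, 12.7 in Scr_600, 11.7 in Nfat5-KO_300 and 12.8 in Nfat5-KO_600, with both hypertonic values above both isotonic ones.

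The 6 genes of start codon selection (eIF1, eIF1A, eIF5 and relatives) were all lower in hypertonic medium, with medians of -0.25 in Scr and -0.48 in Nfat5-KO cells, but with equal FPKM sums 4 of 6 were lower in Scr and 6 of 6 in Nfat5-KO cells. Both eIF1A genes were past the fold in Nfat5-KO cells. Eif1a was at 44.1 FPKM in Scr_300, 33.9 in Scr_600, 48.1 in Nfat5-KO_300 and 25.9 in Nfat5-KO_600, log2 ratios of -0.38 in Scr and -0.89 in Nfat5-KO cells. Eif1ax, the X-linked eIF1A gene, was at 33.9 FPKM in Scr_300, 25.03 in Scr_600, 28.7 in Nfat5-KO_300 and 18.4 in Nfat5-KO_600, log2 ratios of -0.43 in Scr and -0.63 in Nfat5-KO cells. Eif1, the most abundant of the role at 135 to 176 FPKM, differed by only -0.13 in Scr and -0.30 in Nfat5-KO cells. Its near copy Eif1b was at 15.5 FPKM in Scr_300, 11.1 in Scr_600, 15.9 in Nfat5-KO_300 and 11.3 in Nfat5-KO_600, with a similar log2 ratio in Scr (-0.47) and Nfat5-KO cells (-0.48).

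Eif6 (chr2:155819832-155826925) encodes the factor that keeps the large ribosomal subunit from joining too early. It was listed at 125 FPKM in Scr_300, 112 in Scr_600, 175 in Nfat5-KO_300 and 88.7 in Nfat5-KO_600. Nfat5-KO_300 was thus the highest and Nfat5-KO_600 the lowest group, and the log2 ratio for 600 against 300 mosmol/kg was -0.98 in Nfat5-KO and -0.16 in Scr cells. In contrast Eif5b, the GTPase of subunit joining, had a log2 ratio of -0.18 in each genotype. Eif5a (chr11:69916714-69921958), the gene of a hypusine-bearing factor that also acts in elongation, had the highest FPKM of all 47 genes, at 324 in Scr_300, 251 in Scr_600, 346 in Nfat5-KO_300 and 202 in Nfat5-KO_600. Its log2 ratios were -0.77 in Nfat5-KO and -0.37 in Scr cells. The second isoform, Eif5a2, was at 5.56 FPKM in Scr_300, 2.92 in Scr_600, 5.14 in Nfat5-KO_300 and 2.50 in Nfat5-KO_600, log2 ratios of -0.91 in Scr and -1.01 in Nfat5-KO cells. Eif5a2 and Eif2b3 were the only genes of the 47 at 2-fold or more in any comparison, and neither was with a pseudocount of 1 FPKM (-0.81 and -0.89 in Nfat5-KO cells) or with equal FPKM sums (-0.78 and -0.94). Eif4a3, a helicase of the exon junction complex rather than of initiation, was at 103 FPKM in Scr_300, 94.1 in Scr_600, 102 in Nfat5-KO_300 and 82.0 in Nfat5-KO_600.

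The response of Nfat5-KO cells was set against that of Scr cells by subtracting the log2 ratios. The difference was below 0 for 43 of 47 genes, with a median of -0.20 beside -0.020 over the 12497 genes with both ratios. Of those 12497, 52.7% were below 0. With equal FPKM sums 33 of 47 were below 0, with a median of -0.088 beside 0.090 over all genes. All 14 eIF3 genes were below 0 as deposited and 11 of 14 with equal sums. The lowest differences were those of Eif6 (-0.81), Eif4ebp1 (-0.66) and Eif2b3 (-0.61), and the highest that of Eif4a2 (0.25). At the same time the responses of Eif2s1 (-0.068), Eif5a2 (-0.11) and Eif3e (-0.100) differed little between genotypes. Their hypertonic ratios were among the lowest in Scr cells. No test of this difference was possible.

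The next comparisons ask how Nfat5-KO cells differed from Scr cells at each osmolality. They share their groups with the comparisons above, so they are no independent evidence. At 300 mosmol/kg 28 of 47 genes were higher and 19 lower in Nfat5-KO_300, with a median log2 ratio of 0.082 beside -0.0015 over all 12704 genes. The share of all genes that were lower there was 50.2%. Past the fold, 1 gene was higher (Eif4g1) and 0 lower, where 5.27% of all genes were higher and 6.21% lower. At 600 mosmol/kg 17 were higher and 30 lower in Nfat5-KO_600, with a median of -0.20 beside -0.020 over all 13063 genes, of which 52.2% were lower. Past the fold, 2 genes were lower (Eif4ebp1 and Eif3m) and 0 higher, where 9.44% of all genes were lower and 9.84% higher. Of 47 genes, 1 and 2 are smaller shares than the background. With equal FPKM sums 32 were higher at 300 mosmol/kg, and at 600 mosmol/kg 22 were higher and 25 lower, with a median of -0.070 beside 0.11 over all genes. On that scale 48.0% of all genes were lower at 300 and 38.5% at 600 mosmol/kg. As deposited, 16 genes were higher and 18 lower in Nfat5-KO cells at both osmolalities, 12 were higher at 300 and lower at 600 mosmol/kg, and 1 (Eif4a2) the reverse. These classes count any sign, also of values near 0. With equal FPKM sums Eif3a, Eif3g and Eif4a1, for example, turned higher at 300 mosmol/kg (0.0015, 0.0066 and 0.013). Shares of all genes in these classes were not computed, so the counts cannot be set against a background.

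The highest isotonic ratio belonged to Eif4g1 (chr16:20668313-20692884), which encodes the main scaffold of eIF4F. It was listed at 114 FPKM in Scr_300, 111 in Scr_600, 173 in Nfat5-KO_300 and 119.6 in Nfat5-KO_600. Nfat5-KO_300 was the high group and the other 3 lay close together, with log2 ratios to Scr cells of 0.60 at 300 and 0.11 at 600 mosmol/kg. Eif3b (chr5:140419328-140443360), a core subunit of eIF3, had the same pattern at 141 FPKM in Scr_300, 142 in Scr_600, 204 in Nfat5-KO_300 and 145 in Nfat5-KO_600, with ratios of 0.53 and 0.034. Eif5 (chr12:111538016-111546752), the gene of the GTPase-activating protein of eIF2, was at 58.1 FPKM in Scr_300, 53.3 in Scr_600, 80.9 in Nfat5-KO_300 and 58.3 in Nfat5-KO_600, with ratios of 0.48 and 0.13. Eif6 had an isotonic ratio of 0.48 and a hypertonic ratio of -0.33. All 5 eIF2B genes were higher in Nfat5-KO_300, by 0.11 to 0.36, also with equal FPKM sums. Eif4g3, a paralog of Eif4g1, had lower levels of 8.36 FPKM in Scr_300, 8.27 in Scr_600, 9.85 in Nfat5-KO_300 and 8.31 in Nfat5-KO_600. Eif4g2, an eIF4G relative that lacks the eIF4E-binding site, was at 89.5, 88.6, 99.8 and 86.0 FPKM in the same order. In all 3 eIF4G genes Nfat5-KO_300 was thus the highest group.

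Among the 18 genes that were lower in Nfat5-KO cells at both osmolalities as deposited were 10 of the 14 eIF3 genes. Of these, Eif3a, Eif3g and Eif3k were not lower at both with equal FPKM sums. Eif3m (chr2:104999656-105017080), a subunit of the eIF3 octamer, was listed at 95.3 FPKM in Scr_300, 70.9 in Scr_600, 74.5 in Nfat5-KO_300 and 45.7 in Nfat5-KO_600, and had ratios of -0.35 at 300 and -0.63 at 600 mosmol/kg. Eif3h had ratios of -0.28 and -0.31 and Eif3e of -0.27 and -0.37. Over the 14 eIF3 genes the median was -0.036 at 300 and -0.29 at 600 mosmol/kg, with 10 and 12 lower, or 8 and 11 with equal FPKM sums. Eif4b, a cofactor of the eIF4A helicase, was at 155 FPKM in Scr_300, 132 in Scr_600, 122 in Nfat5-KO_300 and 115 in Nfat5-KO_600, with ratios of -0.34 and -0.20. The lowest ratio of any gene was that of Eif4ebp1 at 600 mosmol/kg, at -0.85, beside -0.19 at 300 mosmol/kg.

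Each gene was also set beside the median log2 ratio of the expressed genes that start within 10 Mb of it. For 10 of the 47 that neighbour median was 0.15 or more at 300 mosmol/kg: Eif2s1, Eif2b2 and Eif5 on chromosome 12, Eif4g1, Eif2b5 and Eif4a2 on chromosome 16, Eif3b and Eif4h on chromosome 5, and Eif2a and Eif4e on chromosome 3. Of these, 9 were higher in Nfat5-KO_300, with a median of 0.33, and 9 in Nfat5-KO_600, with a median of 0.13. Of the other 37, 19 were higher in Nfat5-KO_300, with a median of 0.037, and 8 in Nfat5-KO_600, with a median of -0.22. Neighbours of Eif4g1 had a median of 0.27, those of Eif3b 0.23 and those of Eif5 0.30, while those of Eif6 were at 0.021, those of Eif4ebp1 at -0.062 in the hypertonic comparison and those of Eif2s3x at -0.094. Taken relative to their neighbours, Eif4g1 at 300 mosmol/kg and Eif3m at 600 mosmol/kg were no longer past the fold, and the median of the initiation factor genes was 0.054 at 300 and -0.12 at 600 mosmol/kg. The part of the chromosomal region in these values was not tested. The hypertonic ratios of the 10 and the 37 were close, with medians of -0.22 and -0.23 in Scr and -0.50 and -0.47 in Nfat5-KO cells.

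**Figure D3:**
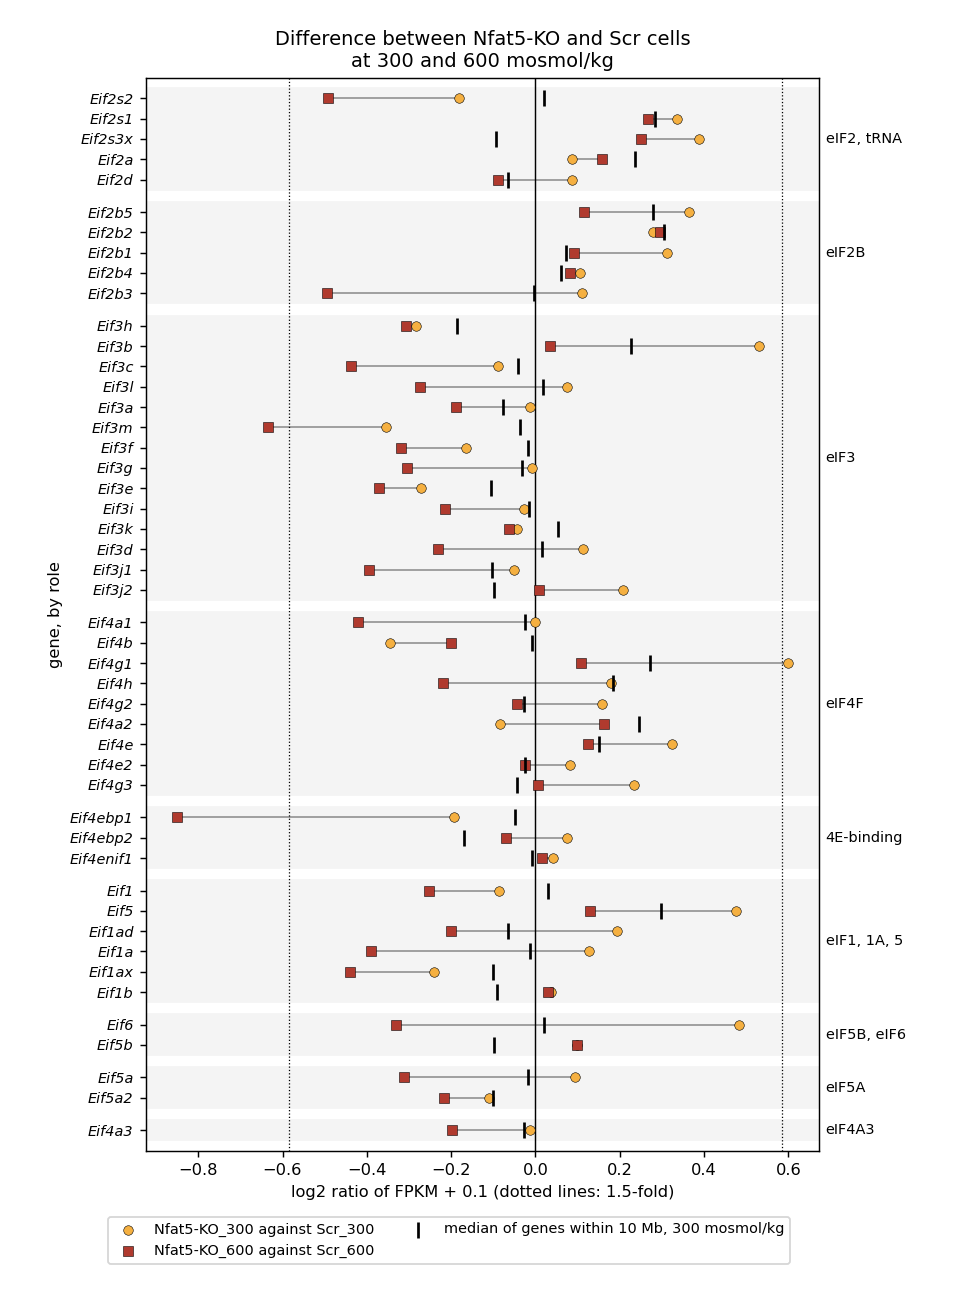
Log2 ratio of FPKM + 0.1 of Nfat5-KO against Scr cells for each expressed initiation factor gene at 300 mosmol/kg (circles) and 600 mosmol/kg (squares), by role, with the median ratio of genes within 10 Mb at 300 mosmol/kg as a vertical tick and dotted lines at 1.5-fold. Eif4g1 is the only circle at the right dotted line, and Eif4ebp1 and Eif3m are the only squares beyond the left one.

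Promoter sequences from RefSeq (GRCm38, 250 bases before to 50 after the start site) were found for 40 of the 52 genes, 38 of them expressed. The core of the element that NFAT5 binds, TGGAAA, searched on both strands, was in 3 of the 38 (7.89%: Eif3g, Eif5a and Eif1), compared with 23.9% of all 27025 genes with a promoter and 19.0% of the expressed ones. The E-box CACGTG, the motif of MYC and related factors, was in 10 of the 38 (26.3%), compared with 8.09% of all and 11.9% of expressed genes. CCGGAAG, the core bound by ETS factors, was in 15 of the 38 (39.5%), compared with 9.93% and 21.5%. No match of one motif overlapped a match of another in these promoters. Matches are letters in a window and do not show binding. Some genes, such as Eif5a, were searched at several start sites, and the Eif4g1 match belongs to a start site inside the gene. The shares were not adjusted for the number of start sites or for base composition. The E-box is shown here in capitals for the genes with the highest isotonic genotype ratio (Eif4g1) and the highest level (Eif5a), the NFAT5 core for Eif5a, and the ETS core for Eif3m, the only eIF3 gene past the fold in Nfat5-KO_600 against Scr_600. Windows are 30 bases on the strand of the gene.
Eif4g1, chr16:20672661-20672690, plus strand: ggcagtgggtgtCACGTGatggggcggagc
Eif5a, chr11:69921443-69921472, minus strand: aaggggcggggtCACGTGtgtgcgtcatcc
Eif5a, chr11:69921459-69921488, minus strand: agcactacggacTGGAAAggggcggggtca
Eif3m, chr2:105017064-105017093, minus strand: ctgtggctgacCCGGAAGcggttgtgcgta

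Transcripts of ribosomal proteins and some translation factors start with a C followed by a run of pyrimidines, the terminal oligopyrimidine (TOP) motif, through which mTORC1 controls their translation. A C at the annotated start followed by at least 4 pyrimidines was present in 2 of the 38 expressed initiation factor genes (5.26%), in 3.09% of expressed genes and in 13 of 62 cytosolic ribosomal protein genes. Most ribosomal protein genes thus had no match, although their transcripts are known for this motif. A gene without a match in this search therefore cannot be said to lack the motif. The 2 initiation factor genes with a match are shown with the run in capitals, 15 bases before and 15 after the start.
Eif2s3x, chrX:94212637-94212666, minus strand: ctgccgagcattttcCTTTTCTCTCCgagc
Eif3f, chr7:108934400-108934429, plus strand: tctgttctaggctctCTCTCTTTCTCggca
Eif2s3x was among the genes with the largest hypertonic differences, as given above. Eif3f, a subunit of the eIF3 octamer, was at 65.1 FPKM in Scr_300, 56.2 in Scr_600, 58.1 in Nfat5-KO_300 and 45.0 in Nfat5-KO_600, log2 ratios for 600 against 300 mosmol/kg of -0.21 in Scr and -0.37 in Nfat5-KO cells.

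Other genes of translation were compared by lists. The 19 expressed partners of initiation that are not named Eif had medians of -0.18 in Scr and -0.37 in Nfat5-KO cells for 600 against 300 mosmol/kg, with 0 past the fold in Scr cells and 5 lower and 1 higher in Nfat5-KO cells. The higher one was Pdcd4, an inhibitor of the eIF4A helicase, at 3.80 FPKM in Scr_300, 4.82 in Scr_600, 2.49 in Nfat5-KO_300 and 7.22 in Nfat5-KO_600, log2 ratios of 0.33 in Scr and 1.502 in Nfat5-KO cells. Elongation factors (8 expressed genes) had medians of -0.32 and -0.47 and mitochondrial translation factors (9 genes) of -0.15 and -0.30. Cytosolic ribosomal protein genes were lower than the initiation factors in Scr cells, with a median of -0.57 over 77 genes, 37 of them past the fold and lower. In Nfat5-KO cells their median was -0.63 over 78 genes, 47 of them past the fold and lower and 1 higher. The difference between the responses of the genotypes had a median of -0.050 for the ribosomal protein genes, beside -0.20 for the initiation factor genes. The values of these and the following lists are as deposited and depend on the scale too. With equal FPKM sums the median of all genes moved up by 0.13 in Scr and 0.24 in Nfat5-KO cells. For the difference between responses it moved from -0.020 to 0.090, so small list medians such as -0.050 have no settled sign.

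**Figure D4:**
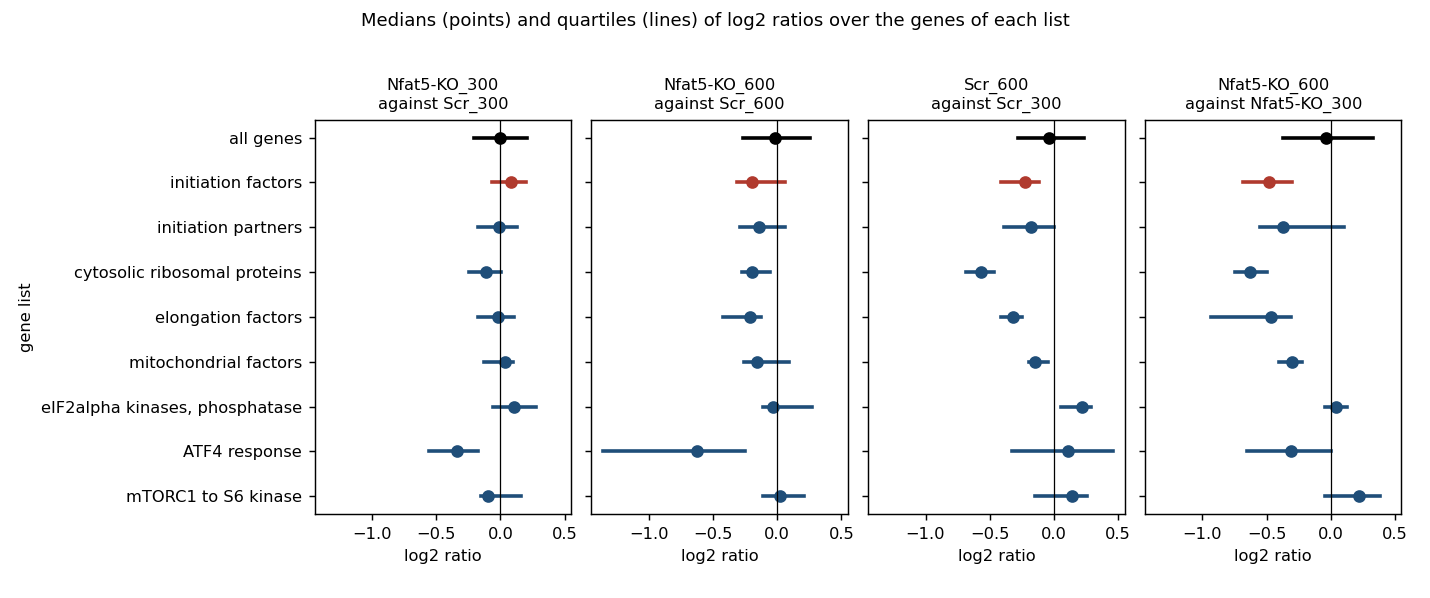
Median (points) and quartiles (lines) of the log2 ratio of FPKM + 0.1 over all genes and over each list, in the 4 comparisons. In Scr cells the initiation factors (median -0.23) lie between all genes (-0.041) and the ribosomal proteins (-0.57), and in Nfat5-KO cells (-0.48) they lie nearer to the ribosomal proteins (-0.63).

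The 6 genes of the eIF2alpha kinases and their opposing phosphatase subunits had medians of 0.21 in Scr and 0.040 in Nfat5-KO cells for 600 against 300 mosmol/kg, with 0 past the fold in any of the 4 comparisons. The 12 genes from mTORC1 to S6 kinase had medians of 0.14 and 0.22. Past the fold, 1 was lower in each genotype (the ribosomal protein gene Rps6), 0 were higher in Scr and 2 in Nfat5-KO cells. The list pools activators with inhibitors, so its median gives no direction for the pathway. One of the 12, Deptor, an mTOR inhibitor, was at 0.504 FPKM in Scr_300, 0.306 in Scr_600, 0.233 in Nfat5-KO_300 and 0.603 in Nfat5-KO_600. ATF4, the factor translated when eIF2alpha is phosphorylated, has Eif4ebp1 among its known targets. Of a list of other genes of its response, with Atf4 itself included, 18 were expressed. For 600 against 300 mosmol/kg their median was 0.11 in Scr cells, with 1 past the fold and lower and 4 higher, and -0.31 over 17 of them in Nfat5-KO cells, with 5 past the fold and lower and 2 higher. Against Scr cells their medians in Nfat5-KO cells were -0.33 at 300 mosmol/kg, where 15 of 18 were lower and 3 past the fold, and -0.62 at 600 mosmol/kg, where 16 of 18 were lower and 9 past the fold, and none was past the fold and higher.

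Of these genes, 7 were 2-fold or more lower in Nfat5-KO_600 than in Scr_600, and Nupr1 (-4.36) and Fgf21 (-2.63) were the lowest. Asns, the asparagine synthetase gene, was at 66.3 FPKM in Scr_300, 44.4 in Scr_600, 52.6 in Nfat5-KO_300 and 19.5 in Nfat5-KO_600, log2 ratios to Scr cells of -0.33 at 300 and -1.18 at 600 mosmol/kg. Psat1, of serine synthesis, was at 109.6 FPKM in Scr_300, 139 in Scr_600, 73.4 in Nfat5-KO_300 and 42.4 in Nfat5-KO_600, ratios of -0.58 and -1.71. Nfat5-KO_600 was the lowest group of both, as it was for 30 of the expressed initiation factor genes, Eif4ebp1 among them. The part of ATF4 in the level of Eif4ebp1 was not tested. The stress genes Chac1 (-1.45), Ddit4 (-1.39) and Trib3 (-1.26) were also 2-fold or more lower at 600 mosmol/kg, and Trib3 (-1.25) at 300 mosmol/kg as well. Nupr1, a stress-induced transcription cofactor gene, was at 8.98 FPKM in Scr_300, 58.2 in Scr_600, 1.47 in Nfat5-KO_300 and 2.73 in Nfat5-KO_600. Fgf21, a hormone gene, was at 0.886, 1.69, 0.221 and 0.189 FPKM in the same order. Vldlr, a lipoprotein receptor gene, and Atf3 were the 2 of 18 that went the other way at 600 mosmol/kg. Vldlr had a ratio of 0.54, from 7.63 FPKM in Nfat5-KO_600 and 5.23 in Scr_600. Atf3 had a ratio of 0.17, from 6.04 and 5.35 FPKM in the same order. Atf4 itself was at 161 FPKM in Scr_300, 191 in Scr_600, 140.2 in Nfat5-KO_300 and 129 in Nfat5-KO_600.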

How the data were processed

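Per the labels and the methods of the study, the authors isolated total RNA, made libraries with a NEBNext kit, aligned both read ends by HISAT2 to GRCm38/mm10, took counts for each gene from HTSeq and scaled them to gene length and depth. The deposited table holds FPKM, 1 value per gene and group, and the way a group's libraries were merged is not given in the sources used here. Of 54839 rows, 2436 held no value, 311 exact repeats of another row were dropped, as were 37 symbols with several differing rows. Positions and lengths come from GENCODE M21 (GRCm38), which matched 51582 of the 52015 genes.

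Log2 ratios used FPKM + 0.1, which understates changes of low genes. No test was run. Values were given for genes at 1.5-fold or more in any comparison, the 3 highest and 3 lowest of each comparison, the most abundant of each role and paralog pairs, and outside the initiation factors for genes of the lists of translation factors, regulators and the ATF4 response at 2-fold or more. Ribosomal protein genes are given by counts, and genes of the marker and NFAT5 target lists by counts, sums or examples. Atf4, Atf3, Aqp2, Aqp4, Avpr2, Slc34a1, Slc5a2 and members below these limits are additions to this rule. Members, roles and lists were chosen with earlier results of these data known. Pseudogenes were aligned with minimap2 2.31-r1302 at 90% identity or more. Alternatives were equal FPKM sums, pseudocounts of 1 or 0.01 FPKM, all values above 0, an average of 5 FPKM or more, median-of-ratios factors, other folds, protein-coding members with a role and ratios relative to neighbours, the last chosen after seeing the data. The work used Python 3.11.15 with Biopython 1.88, pandas 2.3.3, numpy 2.4.6 and matplotlib 3.10.9.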

Additional observations from a re-analysis of the deposited data

How the results depend on the processing

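Pseudocounts of 1 or 0.01 FPKM, all values above 0, an average of 5 FPKM or more and protein-coding genes with a role left the direction of the median of the initiation factor genes in all 4 comparisons as reported. Equal FPKM sums gave medians of -0.070 (Nfat5-KO_600 against Scr_600), -0.099 (Scr_600 against Scr_300) and -0.24 (Nfat5-KO_600 against Nfat5-KO_300), with 1, 3 and 7 genes past the fold and lower, and a median of -0.088 for the difference between the responses. With a smaller limit, a log2 ratio of 0.32, 2 genes were lower and 8 higher in Nfat5-KO_300 against Scr_300, 11 lower in Nfat5-KO_600 against Scr_600, 18 lower in Scr_600 and 34 lower in Nfat5-KO_600 against the isotonic groups, beside 15.4%, 15.8%, 20.9%, 22.1% and 28.5% of all genes. At 2-fold 0 genes were called against Scr cells at either osmolality. Of all genes, 2.44% were lower and 1.73% higher at 300 mosmol/kg, and 3.68% and 3.76% at 600 mosmol/kg. Against the isotonic groups 0 were lower in Scr_600 and 2 in Nfat5-KO_600, where 2.86% and 4.11% of all genes were lower. Relative to genes within 10 Mb, an alternative chosen after seeing the data, 0 genes were past the fold and higher in Nfat5-KO_300, 1 lower in Nfat5-KO_600 against Scr_600 (Eif3m was lost) and 3 lower in Scr_600 against Scr_300. Median-of-ratios factors of 0.981 to 1.019 left 39 and 44 of 47 genes lower at 600 mosmol/kg in Scr and Nfat5-KO cells. Of the values of single genes and roles, 168 moved by 0.1 or more on the log2 scale with equal FPKM sums and 8 with a pseudocount of 1. No paired analysis was possible because the deposited values are per group and carry no replicate, and for the same reason no culture or clone could be left out. Differences between clones, between cultures and between sequencing batches are therefore unknown for every gene named here, and a single culture can raise a group value. Counting error was at most 0.063 on the log2 scale except for Eif3j2 (0.16). Pseudogenes close to Eif4a1, Eif2s2, Eif2s3x, Eif3m, Eif3e, Eif4e and Eif1 could share their reads, and how such reads were counted is not given in the sources used here.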
